A study of Mus musculus with 4 samples.

Results

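The 9 genes described here write, copy and remove the methyl mark on cytosine. They were chosen as the rows of the deposited table whose symbol is Dnmt1, Uhrf1, Dnmt3a, Dnmt3b, Dnmt3l, Tet1, Tet2, Tet3 or Tdg. All 9 were found among the 32592 genes listed, and all 9 passed the filter on low counts with 14890 genes in total. Messenger RNA was sequenced as poly(A) libraries from CCE cells, a feeder-free mouse embryonic stem cell line of strain 129/Sv, kept in serum with leukemia inhibitory factor. Cells carrying Eif4a2 shRNAs (sheIF4A2-2 and sheIF4A2-3) gave 2 libraries labelled knockdown, and cells carrying control shRNAs (shLuc and shEV) gave 2 libraries labelled control. Both groups were selected with puromycin at 1 µg/mL for 3 days and harvested on day 4.5 after infection, and the labels do not say which library received which shRNA.

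In mammals DNMT1 copies methylation onto the new DNA strand after replication, with UHRF1 as the protein that finds half-methylated CpG sites for it. DNMT3A and DNMT3B add methylation to unmethylated CpG sites, and DNMT3L, which has no catalytic activity of its own, binds and stimulates them. TET1, TET2 and TET3 oxidise methylcytosine, and TDG cuts out the most oxidised forms so that repair can put back an unmodified cytosine. Mouse embryonic stem cells are known for high levels of Tet1, Tet2, Dnmt3b and Dnmt3l.

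Eif4a2, the targeted RNA helicase gene, was at 753 and 814 normalized counts in knockdown-labelled libraries and at 531 and 379 in those labelled control (log2 change 0.80, SE 0.15, limma adjusted p = 0.014). The targeted transcript thus goes against its label, and higher or lower below compares the libraries by their labels only, since no loss of Eif4a2 RNA was seen. A normalized count is a gene's reads scaled to the effective size of its library, much as in CPM. The libraries held 4604200 to 13681765 reads, with control 2 the shallowest. Over the genes tested, the median absolute log2 difference was 0.0955 between the knockdown-labelled libraries and 0.198 between the control-labelled ones. The labels do not tie the samples to separate cultures, and every p-value here rests on a spread between samples that may be technical.

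The stem cell label was checked against 12 markers of embryonic stem cells, all detected, whose summed level was 9975 to 10320 normalized counts in knockdown-labelled libraries and 13092 to 13699 in control-labelled libraries. Of these markers 5 fell and 0 rose in limma, while 12.4% of all genes tested fell and 10.5% rose, the background for the other marker lists too. At an unadjusted p below 0.05, 7 were lower and 0 higher, while 20.2% of all genes tested were lower and 18.6% higher. The 12 fibroblast markers, which would mark another cell type, summed to 47.3 and 48.4 in knockdown-labelled libraries and to 28.8 and 25.8 in control-labelled libraries, with Dcn, Fap, Lum and S100a4 at 0 in every library, and 2 of the 6 tested rose. Trophectoderm markers summed to 139 and 150 in knockdown-labelled libraries and to 116 and 81.9 in control-labelled libraries, with Elf5 at 0. Of 8 tested, 1 rose and 0 fell (median log2 change 0.36). The largest part of this sum was Tfap2c (81.3 and 91.2 in knockdown-labelled libraries, 69.7 and 41.2 in control-labelled libraries). Primitive endoderm markers summed to 82.7 and 83.7 in knockdown-labelled libraries and to 117 and 141 in control-labelled libraries, with Afp and Ttr at 0. The lower endoderm sum lay in Lama1 (41.1 and 40.3 in knockdown-labelled libraries, 83.2 and 98.9 in control-labelled libraries), the only called gene of that list, whose median log2 change was 0.03. Of 8 primed epiblast markers tested, 1 rose, Otx2 (108 and 105 in knockdown-labelled libraries, 53.6 and 53.2 in control-labelled libraries), and 3 fell, Zic2, Zic5 and Dusp6, and the sums were 448 and 402 in knockdown-labelled libraries and 458 and 597 in control-labelled libraries, with Pou3f1 at 0. Of 5 neural and mesoderm markers tested, 1 rose and 1 fell. The markers given singly were picked with their values in view. In bulk RNA, fewer cells of a type and less RNA per cell cannot be told apart. The part of these shifts in the results below was not tested.

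Among the 9 genes, 2 rose, Dnmt3b and Tet3, and 3 fell, Dnmt3l, Tet1 and Tet2, at an adjusted p below 0.05 in limma. These 5 are 55.6% of the genes, while 23.0% of all 14890 genes tested were called. By direction, 10.5% of all genes tested rose and 12.4% fell. For 7 of the 9 genes the ranges of the groups were separate, as they were for 66.8% of all genes tested: 3 lay above the controls (32.1% of all) and 4 below (34.6%). The share of separate genes was thus near the background. With edgeR's quasi-likelihood test on the recovered reads, which called 25.1% of all genes tested, the same 5 genes passed. In the authors' deposited table, where 11.5% of all genes listed passed, these 5 genes also had an adjusted p below 0.05, with log2 fold changes of 0.75 for Dnmt3b, 0.40 for Tet3, -1.01 for Dnmt3l, -0.74 for Tet1 and -0.72 for Tet2.

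**Figure D1:**
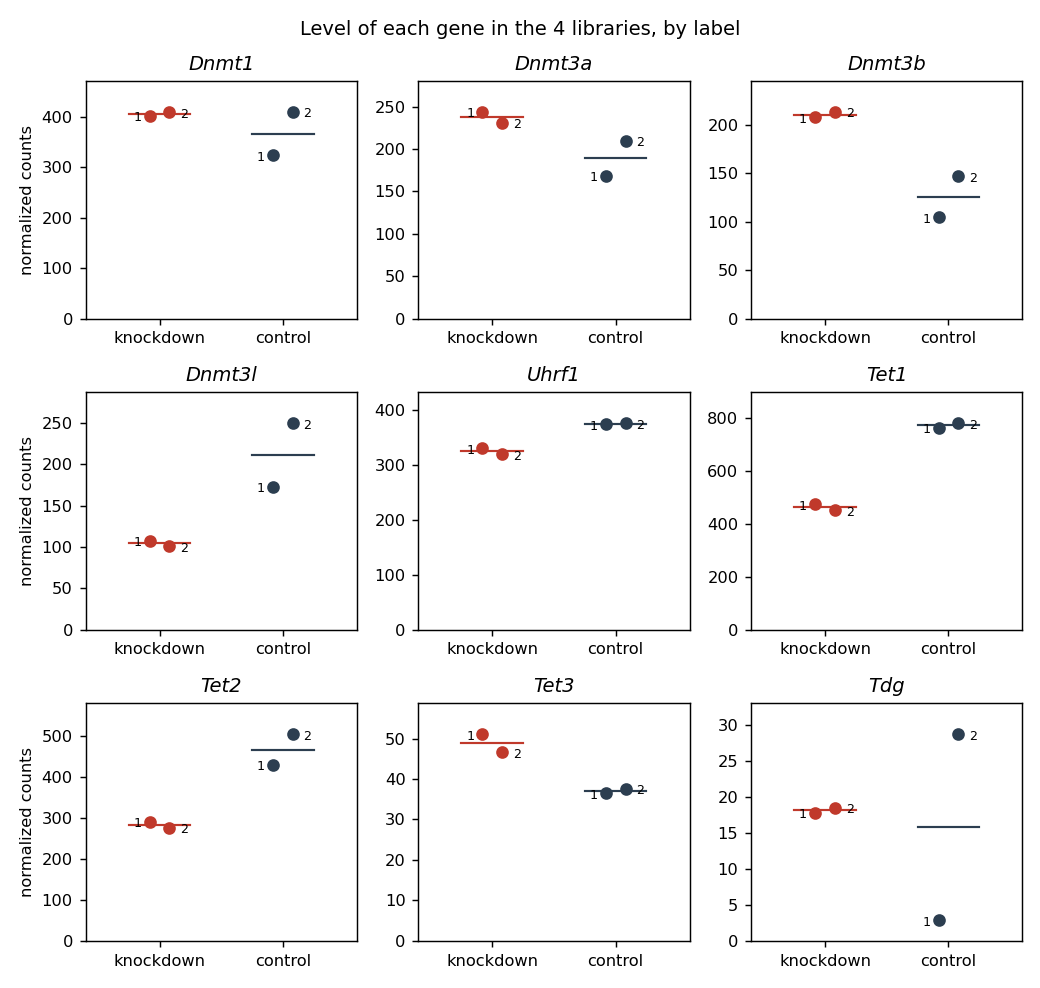
Normalized counts (y axes, from 0) of the 9 genes in each library, with libraries labelled knockdown on the left and libraries labelled control on the right. Points are libraries 1 and 2 and lines are group means; Dnmt3b and Tet3 stand higher and Dnmt3l, Tet1 and Tet2 lower in knockdown-labelled libraries, and Tdg is split between the controls.

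The start regions of the genes with the firmest changes and a single RefSeq start are shown because CpG is the site on which these enzymes act. The windows run from 250 bases before to 50 bases after the RefSeq start on GRCm38.p6, 5′ to 3′ on the gene's strand, with each CpG in capitals. Tet1 is at chr10:62887275-62887574 on the minus strand, Tet2 at chr3:133544341-133544640 on the minus strand, and Dnmt3b at chr2:153649199-153649498 on the plus strand.
Tet1: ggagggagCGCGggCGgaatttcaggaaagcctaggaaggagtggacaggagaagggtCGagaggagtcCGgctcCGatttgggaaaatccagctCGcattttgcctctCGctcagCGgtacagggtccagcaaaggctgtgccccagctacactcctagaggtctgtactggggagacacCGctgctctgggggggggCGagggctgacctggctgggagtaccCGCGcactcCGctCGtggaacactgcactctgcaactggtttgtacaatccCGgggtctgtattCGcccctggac
Tet2: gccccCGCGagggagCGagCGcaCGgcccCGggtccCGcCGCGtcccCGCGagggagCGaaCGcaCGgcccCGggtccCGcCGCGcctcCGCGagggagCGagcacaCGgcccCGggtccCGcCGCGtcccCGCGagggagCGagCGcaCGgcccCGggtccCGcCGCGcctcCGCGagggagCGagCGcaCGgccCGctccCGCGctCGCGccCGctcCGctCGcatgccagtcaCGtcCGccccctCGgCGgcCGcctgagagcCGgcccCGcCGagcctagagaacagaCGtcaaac
Dnmt3b: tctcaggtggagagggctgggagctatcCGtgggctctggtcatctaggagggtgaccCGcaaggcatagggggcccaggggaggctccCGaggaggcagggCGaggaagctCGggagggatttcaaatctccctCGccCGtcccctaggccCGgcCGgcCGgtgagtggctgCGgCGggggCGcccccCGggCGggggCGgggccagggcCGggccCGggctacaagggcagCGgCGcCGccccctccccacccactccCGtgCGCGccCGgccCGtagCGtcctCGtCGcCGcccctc
The Tet2 window held 57 CpG sites, more than 99.8% of the 32851 RefSeq start windows of mouse genes. The Dnmt3b window held 30, more than 88.3% of windows, and the Tet1 window 17, more than 68.6%. The printed windows of Tet1 and Tet2 thus differed in CpG content. In GENCODE M21, both genes begin upstream of these windows, Tet1 at 62908996 and Tet2 at 133545139. Which start these cells used was not tested. All 9 genes had at least 1 window, and Dnmt3l, with 3 annotated starts and none printed, held 3 to 6 CpG sites in each. The GC box GGGCGG, searched on both strands, occurred 1 time in the Tet1 window, 1 time in the Tet2 window and 4 times in the Dnmt3b window, and in 35.7% of all windows. None of these 3 windows held CCAAT (in 37.4% of all windows), CACGTG (7.15%), TATAAA (13.6%) or ATGCAAAT (1.74%) on either strand. No methylation was measured, and these counts describe the letters only.

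Of the genes that copy methylation, neither passed the test. Dnmt1 (ENSMUSG00000004099, chromosome 9, 20907209 to 20959888, minus strand, GRCm38), the maintenance methyltransferase, was at 402 and 408 normalized counts in knockdown-labelled libraries and at 323 and 409 in control-labelled libraries. Control 2 lay with the knockdown libraries and control 1 stood below them. The log2 change was 0.16 (95% interval -0.12 to 0.43, limma adjusted p = 0.367), and without control 1 it was -0.014. Without control 2 it was 0.32, so the control chosen decides its sign. A fit with 1 control left out takes its spread from the knockdown-labelled pair alone, so no call is read from it.

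Uhrf1 (ENSMUSG00000001228, chromosome 17, 56303321 to 56323486, plus strand), the partner that recognises half-methylated CpG, was at 330 and 320 normalized counts in knockdown-labelled libraries and at 375 and 376 in control-labelled libraries. Both knockdown libraries lay below both controls by a small margin. The log2 change of -0.21 (95% interval -0.38 to -0.03) did not pass after adjustment in limma (adjusted p = 0.0873). It passed with a correction for GC content (limma adjusted p = 0.0466), but not with that correction and the replicate block (0.06). With library size only the log2 change was -0.08 (limma adjusted p = 0.416), and with upper-quartile scaling -0.14 (0.204). The log2 change was -0.21 without control 1 and -0.20 without control 2.

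The de novo genes moved unequally. Dnmt3b (ENSMUSG00000027478, chromosome 2, 153649450 to 153687730, plus strand), the de novo methyltransferase typical of embryonic stem cells and early embryos, was at 208 and 214 normalized counts in knockdown-labelled libraries and at 105 and 147 in control-labelled libraries. The groups did not overlap, and control 1 was the lowest library. Dnmt3b rose 1.69-fold (means 211 ± 3.88 and 126 ± 29.9, SD, n = 2 each, log2 change 0.76, SE 0.15, limma adjusted p = 0.0157). The log2 change was 0.52 without control 1 and 1.00 without control 2, and without a variance trend in limma the gene did not pass (adjusted p = 0.0623).

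Dnmt3a (ENSMUSG00000020661, chromosome 12, 3806007 to 3914443, plus strand), the other de novo methyltransferase, was at 244 and 231 normalized counts in knockdown-labelled libraries and at 169 and 210 in control-labelled libraries. The groups did not overlap, but control 2 came close to the knockdown libraries. The log2 change was 0.33 (95% interval 0.06 to 0.60), which did not pass after adjustment in limma (adjusted p = 0.0753). It passed in limma with library size as the only scaling (log2 change 0.46, adjusted p = 0.0258) and with upper-quartile scaling (adjusted p = 0.0453). The log2 change was 0.17 without control 1 and 0.49 without control 2.

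Dnmt3l (ENSMUSG00000000730, chromosome 10, 78041947 to 78063622, plus strand), the inactive cofactor, was at 108 and 101 normalized counts in knockdown-labelled libraries and at 173 and 250 in control-labelled libraries. Both controls stood well above the knockdown libraries and differed from each other by 1.44-fold. Dnmt3l fell 1.98-fold (means 104 ± 4.97 and 211 ± 54.2, SD, n = 2 each, log2 change -0.99, SE 0.16, limma adjusted p = 0.00938), with a log2 change of -1.25 without control 1 and -0.73 without control 2. Its exons overlap those of Aire on the opposite strand by 67 bases, and no source says whether the counting used strand. Aire had 107 to 446 reads per library, against 1104 to 2353 for Dnmt3l.

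Within a library, Dnmt3b was higher relative to both Dnmt3a and Dnmt3l in knockdown-labelled libraries than in control-labelled libraries. To compare genes, normalized counts were divided by the length of the merged exons of GENCODE M21. Dnmt3b over Dnmt3a, per length, was 2.78 and 3.02 in knockdown-labelled libraries and 2.02 and 2.28 in control-labelled libraries. Dnmt3l over Dnmt3b, per length, was 0.886 and 0.807 in knockdown-labelled libraries and 2.83 and 2.90 in control-labelled libraries. Per merged exon length, Dnmt3l was thus below Dnmt3b in both knockdown libraries and above it in both controls. This last ratio was close between the controls, although each of the 2 genes differed between them by 1.40-fold to 1.44-fold. With 2 libraries a group the smallest p of an exact permutation test is 0.333, so these ratios carry no test.

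**Figure D2:**
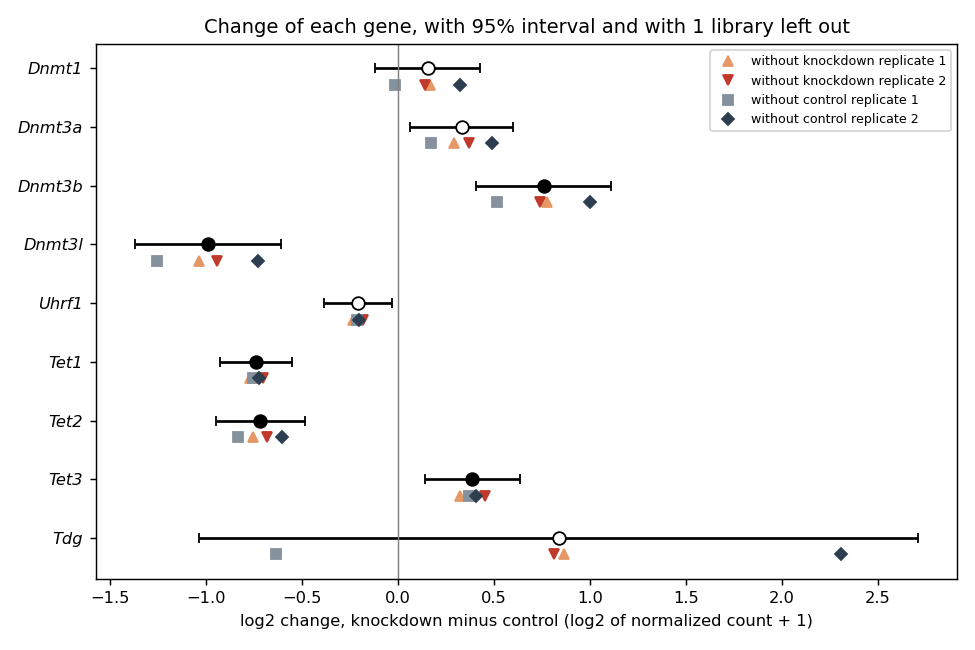
Log2 change of each gene (x axis, knockdown minus control, on log2 of the normalized count plus 1), with circles for all 4 libraries, bars for the 95% interval of limma, and small markers for fits that leave out 1 library. Filled circles passed at an adjusted p below 0.05; the markers of Tet1 lie together near -0.74, and those of Tdg run from -0.63 to 2.31.

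Of the TET genes, the abundant ones fell and the scarce one rose. Tet1 (ENSMUSG00000047146, chromosome 10, 62804570 to 62908996, minus strand), the main TET oxidase of embryonic stem cells, was at 474 and 452 normalized counts in knockdown-labelled libraries and at 765 and 781 in control-labelled libraries. The libraries of each group lay close together and the groups were far apart. Tet1 fell 1.67-fold (means 463 ± 15.6 and 773 ± 11.8, SD, n = 2 each, log2 change -0.74, SE 0.08, limma adjusted p = 0.00378). Over the 18 alternatives its log2 change lay between -0.77 and -0.61, and it passed in each that kept all 4 libraries.

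Tet2 (ENSMUSG00000040943, chromosome 3, 133463679 to 133545139, minus strand), the other TET oxidase abundant in these cells, was at 290 and 276 normalized counts in knockdown-labelled libraries and at 430 and 504 in control-labelled libraries. Every knockdown library lay below every control, with control 2 the highest. Tet2 fell 1.64-fold (means 283 ± 10.6 and 467 ± 52.8, SD, n = 2 each, log2 change -0.72, SE 0.10, limma adjusted p = 0.00615). It passed in each alternative that kept all 4 libraries.

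Tet3 (ENSMUSG00000034832, chromosome 6, 83362373 to 83459084, minus strand), the TET oxidase of the egg and zygote, was at 51.1 and 46.6 normalized counts in knockdown-labelled libraries and at 36.5 and 37.6 in control-labelled libraries. The groups did not overlap, and the control values nearly coincided. Tet3 rose 1.31-fold (means 48.8 ± 3.12 and 37.0 ± 0.749, SD, n = 2 each, log2 change 0.39, SE 0.10, limma adjusted p = 0.0385). It did not pass in limma with a GC correction (adjusted p = 0.0591), with that correction and the replicate block (0.0522) or without a variance trend (0.0792). It also missed in DESeq2 (adjusted p = 0.0944), without knockdown 1 (log2 change 0.33) and without knockdown 2 (0.45). The log2 change was positive in each.

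The proportions of the TET genes were compared within each library. Tet2 over Tet1, per length, was 0.561 and 0.558 in knockdown-labelled libraries and 0.515 and 0.591 in control-labelled libraries, so the groups overlapped. Tet1 over Tet3, per length, was 10.04 and 10.5 in knockdown-labelled libraries and 22.6 and 22.5 in control-labelled libraries. The 3 TET genes summed to 51.0 and 48.4 normalized counts per kb in knockdown-labelled libraries and to 77.1 and 82.7 in control-labelled libraries. The catalytic de novo genes Dnmt3a and Dnmt3b summed to 55.4 and 55.7 per kb in knockdown-labelled libraries and to 30.6 and 41.4 in control-labelled libraries. Per merged exon length, the TET sum was 0.920 and 0.869 times the de novo sum in knockdown-labelled libraries. In controls 1 and 2 it was 2.52 and 2.00 times the de novo sum. The merged exons were 15.5 to 16.9 kb for the TET genes and 16.6 kb for Dnmt3a, but 5.11 kb for Dnmt3b. Which sum was larger in knockdown-labelled libraries therefore depends on the lengths used. No test was made of these sums, and enzyme activity was not measured.

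The transcripts of Tet1 and Tet2 were the lowest in GC content among the 9 genes, at 43.7% and 45.4%, against 47.9% to 54.0% for the others. With a correction of each library for GC content, Tet1 had a log2 change of -0.62 (limma adjusted p = 0.00623) and Tet2 of -0.62 (adjusted p = 0.0111).

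Tdg (ENSMUSG00000034674, chromosome 10, 82629828 to 82650799, plus strand), the glycosylase that removes oxidised methylcytosine, was at 17.8 and 18.5 normalized counts in knockdown-labelled libraries and at 2.87 and 28.7 in control-labelled libraries. The controls differed by 10.01-fold and lay on either side of the knockdown libraries. Control 1 had 39 Tdg reads (exact Poisson 95% interval 2.04 to 3.92 normalized counts) and control 2 had 127 (24.0 to 34.2), so the gap between them was larger than counting error. The log2 change was 0.84 (95% interval -1.03 to 2.71, limma adjusted p = 0.476), -0.63 without control 1 and 2.31 without control 2, so no direction can be given.

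The reads of Tdg are uncertain because the mouse genome holds copies that share stretches of its sequence. Gm9855, which RefSeq names Tdg-ps2, was at 26.1 and 30.3 normalized counts in knockdown-labelled libraries and at 42.6 and 52.7 in control-labelled libraries. This copy thus held more reads than Tdg in every library, 1.46 to 1.63 times as many in knockdown-labelled libraries and 14.8 and 1.83 times as many in controls 1 and 2. Of the 1095 different stretches of 100 bases in the annotated Gm9855 transcript, 61.3% occur letter for letter in a Tdg transcript. Of the 5738 such stretches of Tdg, 11.7% occur in Gm9855 and 16.9% in Tdg-ps, another copy, so most of Tdg differs from each copy over a read's length. A read of 100 bases from the shared stretches could not be assigned by its sequence alone. How reads across exon junctions were placed was not given, so the share of Tdg reads at risk is not known. The sum of Tdg and Gm9855 was 43.9 and 48.8 in knockdown-labelled libraries and 45.5 and 81.5 in control-labelled libraries. Gm9855 fell 1.66-fold (limma adjusted p = 0.0147) and was picked with its values in view. Tdg exons also overlap those of Glt8d2 on the opposite strand by 367 bases, and Glt8d2 had 4 to 8 reads per library.

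The order of levels per length, by the mean of all libraries, was Uhrf1 (82.2 normalized counts per kb), Dnmt3l (52.9), Dnmt1 (52.3), Tet1 (40.0), Dnmt3b (33.0), Tet2 (22.2), Dnmt3a (12.8), Tdg (3.16) and Tet3 (2.57). Uhrf1 was highest in both groups, at 76.3 ± 1.77 per kb in knockdown-labelled libraries and 88.1 ± 0.294 in control-labelled libraries (SD, n = 2 each). Neighbours changed places between the groups. Dnmt3l, at 34.9 ± 1.66 per kb in knockdown-labelled libraries and 70.8 ± 18.1 in control-labelled libraries, came after Dnmt1 (54.9 ± 0.632) and Dnmt3b (41.3 ± 0.761) in knockdown-labelled libraries and was second after Uhrf1 in control-labelled libraries. Dnmt3b stood above Tet1 in both libraries labelled knockdown (40.7 and 41.8 against 30.7 and 29.3 per kb) and below it in both libraries labelled control (20.5 and 28.8 against 49.5 and 50.6). Among controls, Dnmt1 and Tet1, Dnmt3b and Tet2, and Tdg and Tet3 overlapped. Merged exon lengths take in all annotated isoforms, so the level per kb of a gene with long alternative exons can be understated. Dnmt3a, Tet1, Tet2 and Tet3 had merged exons of 15.5 to 16.9 kb, so their places in the order depend on these lengths.

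**Figure D3:**
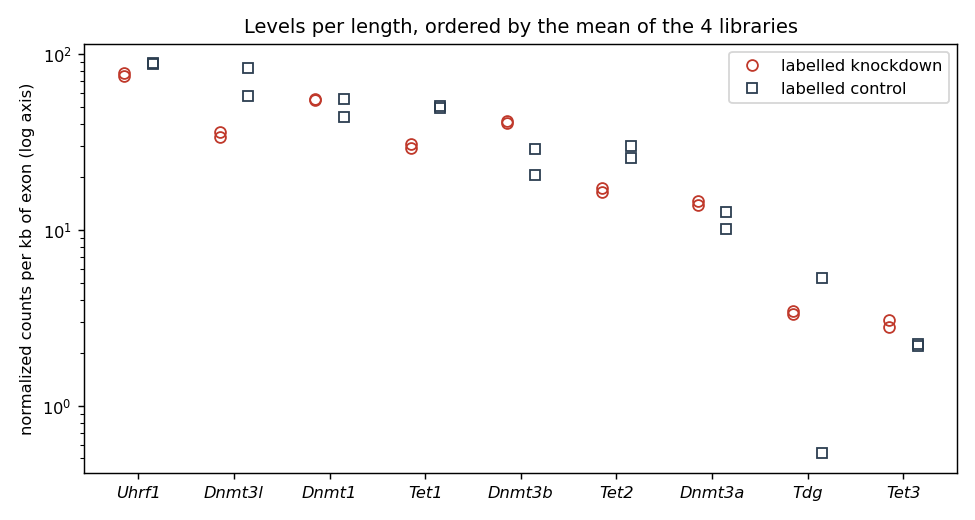
Normalized counts per kb of merged exon (y axis, log scale) for the 9 genes, ordered by the mean of the 4 libraries, with circles for libraries labelled knockdown and squares for libraries labelled control. Dnmt3b lies above Tet1 in the circles and below it in the squares, and Tdg has the widest spread between controls.

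All 9 genes were higher in control 2 than in control 1, against 46.8% of all genes tested, and 3 of 9 were higher in knockdown 2 than in knockdown 1, against 47.8%. The gap between the controls ran from 1.00-fold for Uhrf1 and 1.02-fold for Tet1 to 1.44-fold for Dnmt3l and 10.01-fold for Tdg. The part of this gap in the results was measured only by the fits that leave out 1 control.

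The genes nearest to each called member over the 4 libraries were found by the Euclidean distance of log2 values centred on each gene's mean. Tet1 was nearest to Stimate (distance 0.0226 on the log2 scale) and Eefsec (0.0286), and Tet2 to Pacsin2 (0.0249) and Cobl (0.0267). Tet3 was nearest to Cntrl (0.0128) and Pdxk (0.0166), and Dnmt3l to Slc7a3 (0.069) and Sox11 (0.085). Dnmt3b was nearest to Itga2b (0.0242) and Apln (0.0351), which stood at 1.10 to 3.97 normalized counts. Likeness over 4 libraries is a description only.

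Other genes of the pathway were described by lists of 118 genes in all, of which 114 were tested, with 17 that rose, 14 that fell and 83 that did not pass. The share called was 27.2%, near the 23.0% of all genes tested, and the median log2 change was 0.02, against -0.01 over all genes tested. No list was tested as a set. Counts with 1 library left out move with the number of genes called in that fit. Without knockdown 1, 3.30% of all genes tested were higher and 4.39% lower, and without knockdown 2, 1.74% and 2.65%. Without control 1, 25.4% were higher and 26.5% lower, and without control 2, 21.3% and 24.4%. Of the genes named below from the lists, Mthfd2, Tdh, Idh3a, Piwil2 and Tdrd1 passed in every alternative, and each other gene named as called missed the threshold in at least 1.

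Of 12 maintenance partners, 3 fell and 1 rose (median log2 change -0.23). Cdca7, which with the remodeler Hells keeps heterochromatin methylated, fell to 154 and 139 normalized counts in knockdown-labelled libraries, against 211 and 203 in control-labelled libraries (1.41-fold, limma adjusted p = 0.0109). Usp11, a deubiquitinase, fell 1.33-fold (adjusted p = 0.0239), and Lig1, the ligase of replicating DNA to which UHRF1 binds, fell 1.27-fold (adjusted p = 0.027). Without knockdown 2, 0 of these genes passed in either direction, and without control 1, 9 fell and 1 rose. With library size only, 1 fell and 2 rose.

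Of 10 methyl-CpG readers, proteins that bind methylated DNA, 2 rose and 0 fell in limma (median 0.09). DESeq2 and edgeR also called 0 lower, and 1 was lower at an unadjusted p below 0.05, at which 20.2% of all genes tested were lower. Zbtb4, a zinc finger reader, was at 12.7 and 11.8 normalized counts in knockdown-labelled libraries and at 4.93 and 6.56 in control-labelled libraries, a rise of 1.97-fold (adjusted p = 0.0155). Mbd2, a reader that recruits a deacetylase complex, rose 1.52-fold (adjusted p = 0.0205). Without knockdown 1 or knockdown 2 neither passed, and without control 2, 6 readers rose and 2 fell.

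Of 16 genes of base excision repair, other DNA glycosylases, later repair steps and Gadd45 factors among them, 3 rose and 2 fell (median 0.04). Gadd45g, a stress-induced factor linked to demethylation, rose 2.78-fold to 5.77 and 7.55 normalized counts in knockdown-labelled libraries, against 1.47 and 2.04 in control-labelled libraries (adjusted p = 0.00857). Apex1, the endonuclease that cuts at abasic sites, fell 1.46-fold (adjusted p = 0.0121), and Xrcc1, the scaffold of single-strand break repair, rose 1.35-fold (adjusted p = 0.0259) but did not pass with a GC correction (0.149). Without knockdown 2, 0 passed in limma.

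Of 19 genes of the methionine and folate cycle, which supplies the methyl donor of the DNMT enzymes, 6 fell and 0 rose in limma (median -0.16, and -0.04 with library size only). DESeq2 and edgeR also called 0 higher, as did an unadjusted p below 0.05, at which 18.6% of all genes tested were higher. Mthfd2, a mitochondrial folate enzyme, was at 52.2 and 42.2 normalized counts in knockdown-labelled libraries and at 105 and 137 in control-labelled libraries, a fall of 2.53-fold (adjusted p = 0.00404). Tdh, the threonine dehydrogenase on which mouse embryonic stem cells rely for one-carbon units, fell 1.56-fold (adjusted p = 0.00508), and Shmt2, the mitochondrial serine enzyme, fell 1.53-fold (adjusted p = 0.0108). The number that fell was 5 without knockdown 1, 2 without knockdown 2, 10 without control 1 and 8 without control 2, and 1 rose without control 1 and 2 without control 2.

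Of 18 genes that supply 2-oxoglutarate, the cosubstrate of TET enzymes, or that encode TET partners, 3 rose and 2 fell (median -0.06, and 0.06 with library size only). Idh3a, a subunit of mitochondrial isocitrate dehydrogenase, fell 1.74-fold (adjusted p = 0.00548), while Ogt, a glycosyltransferase that binds TET proteins, rose 1.44-fold to 340 and 336 normalized counts in knockdown-labelled libraries, against 249 and 222 in control-labelled libraries (adjusted p = 0.00982). Without knockdown 1 or knockdown 2, 0 rose and 1 fell, and without control 1, 4 rose and 9 fell.

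Of 17 regulators of de novo methylation, 1 fell, Morc3, a GHKL ATPase of heterochromatin, by 1.27-fold (adjusted p = 0.0219), and 0 rose in limma (median -0.16). edgeR called 0 higher and Morc3 lower, while DESeq2 called 0 higher and 1 other gene lower, Lin28a (adjusted p = 0.0496). At an unadjusted p below 0.05, 7 were lower and 0 higher, while 20.2% of all genes tested were lower and 18.6% higher. Morc3 did not pass in DESeq2 (adjusted p = 0.0583), with library size only (0.0726), with a GC correction (0.0831), without a variance trend (0.0826), without knockdown 1 (0.22) or without knockdown 2 (0.246). The number that fell was 0 without knockdown 1, 0 without knockdown 2, 9 without control 1 and 7 without control 2. Prdm14, a repressor of the Dnmt3 genes in naive cells, was at 66.9 and 65.8 normalized counts in knockdown-labelled libraries and at 65.2 and 60.4 in control-labelled libraries (log2 change 0.08, limma adjusted p = 0.573). Lin28a and Prdm14 were named after their values were seen.

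Of 24 germline genes whose promoters are silenced by DNA methylation in most somatic cells, 8 rose and 0 fell in limma (median 0.67). Some lay near the floor, and Sycp2 and Dpep3, both among those that rose, Tex101 and Rhox9 passed the low-count filter through knockdown-labelled libraries only. Sycp2 had 10 and 0 reads in control-labelled libraries, and Dpep3 10 and 3. Such genes could enter only as higher, and the counts and median include them. Tex13b, also among those that rose, and Rhox6 reached the filter's level in control 1 but not in control 2. Tex13b had 13 and 4 reads in control-labelled libraries, and Rhox6 13 and 1. These genes too needed knockdown-labelled libraries to pass, and the counts and median include them. All genes named here for the filter were named after their values were seen. DESeq2 called 5 higher and edgeR 10, each with 0 lower, and 18 were higher and 0 lower at an unadjusted p below 0.05, at which 18.6% of all genes tested were higher and 20.2% lower. Piwil2, of the piRNA pathway, was at 43.0 and 44.2 normalized counts in knockdown-labelled libraries and at 23.6 and 18.6 in control-labelled libraries (2.03-fold, adjusted p = 0.00616). Tdrd1, its tudor domain partner, rose 2.53-fold (adjusted p = 0.00738) and Taf7l, a germ cell subunit of TFIID, 2.26-fold (adjusted p = 0.00916). Dazl, named after its values were seen, was at 6.66 and 5.84 in knockdown-labelled libraries and at 7.58 and 4.53 in control-labelled libraries (adjusted p = 0.857). The number that rose was 4 without knockdown 1, 2 without knockdown 2, 18 without control 1 and 16 without control 2, and 0 fell in each. Promoter methylation of these genes was not measured.

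**Figure D4:**
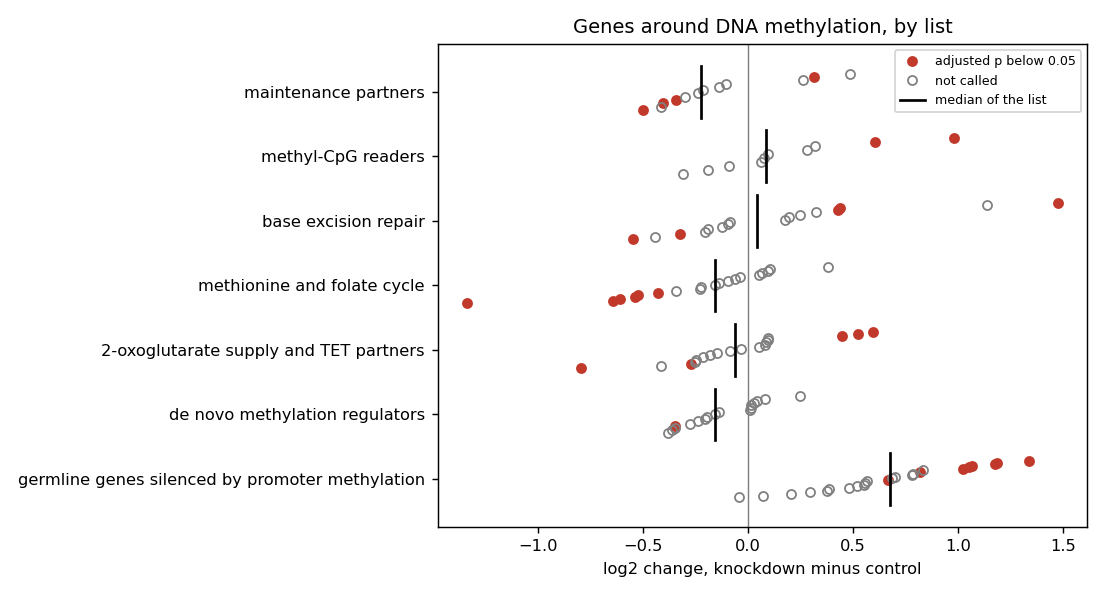
Log2 change (x axis, knockdown minus control) of each tested gene of the 7 lists around DNA methylation, with filled points for an adjusted p below 0.05, open points for genes that did not pass and a bar for the median. The germline genes lie mostly to the right of 0, with a median of 0.67, and the medians of the other lists lie between -0.23 and 0.09.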

How the data were processed

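Poly(A) RNA was sequenced in 4 libraries, 2 labelled Eif4a2 knockdown and 2 labelled control, as 100 bp single-end reads from a 1 µg RNA input, per the labels' protocols. Per the submitters' processing notes, which give no roles, edgeR 3.26.8, HTSeq 0.11.2, SAMtools 1.9 and Bowtie2 2.3.4.3 were used with build mm9. Strand setting and annotation release were not given in the sources used here. Values deposited as signal are each gene's counts scaled to an effective library size, and 100% of values were whole reads within 0.001. The deposited comparison holds, per the file headers, a log2 fold change, a log2 CPM, a likelihood ratio score and p-values. No per-sample column was left out.

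Because the deposited values are normalized, limma 3.58.1 (R 4.3.3, variance trend) was fitted to log2 of the value plus a pseudocount of 1, without a replicate block, over 14890 genes kept by filterByExpr of edgeR 4.0.16. This scale understates fold changes of low genes. Tests were two-sided with Benjamini-Hochberg adjustment over all genes, and an adjusted p below 0.05 was a call. As an alternative, edgeR's quasi-likelihood test on the recovered reads called 3742 genes. The script was tested on simulated data. Fold intervals and read intervals cover 95%, and read intervals cover counting error only, since PCR reads are not independent molecules.

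The named genes were all 9 members, Eif4a2, up to 3 called genes of smallest p per list (or 2 by level where none passed), and the 2 genes nearest to each called member. A gene that this rule names is not reported here. Members and lists were chosen with earlier results of these data known, and the counts of list genes under each alternative were added after seeing the data. Gene positions, exon lengths and GC content are from GENCODE M21 (GRCm38), matched by ID, and start windows from RefSeq (GRCm38.p6), not from mm9. Same-numbered libraries are not tied to a shared culture by the labels. No libraries agreed within sampling noise (chi-square per degree of freedom 1.95 between knockdown 1 and 2, and 12.8 between control 1 and 2).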

Additional observations from a re-analysis of the deposited data

How the results depend on the processing

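The calls of Tet1, Tet2 and Dnmt3l held under each alternative that kept all 4 libraries. Among these alternatives, Dnmt3b missed the threshold only without a variance trend. Tet3 missed it in DESeq2, without a variance trend, and with a GC correction, with or without the replicate block. Tet3 also missed it without knockdown 1 and without knockdown 2. Relative to 5 called members, 2 higher and 3 lower, the members called higher numbered 1 in DESeq2, 0 without a variance trend, 1 with a GC correction, 4 with the replicate block, and 1 to 5 with 1 library left out. The members called lower numbered 3 to 5 with 1 library left out. Genes called overall numbered 3418, against 2219 in DESeq2, 1932 without a variance trend and 653 to 7724 with 1 library left out, where the spread rests on the libraries of the other group. With 1 library left out, the log2 change ran from -0.014 (without control 1) to 0.32 for Dnmt1 and from -0.63 (without control 1) to 2.31 for Tdg, and no other member changed sign under the 18 alternatives. Library size alone moved the median of all genes by 0.11 on the log2 scale, with 68.4% of calls higher, 58.5% with upper-quartile scaling and 45.8% as deposited. The cause of these differences was not tested.

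With the replicate number as a block, 4632 genes were called, and Dnmt3a (adjusted p = 0.0154) and Tdg (0.0253) passed beside the 5. Deviations of same-numbered libraries correlated at 0.036 over genes, which cannot settle whether they shared a culture or batch. Precision is limited by 2 libraries per group and by the 4604200 reads of control 2.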

Other observations

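Some copies and antisense rows of the 9 genes held few reads, unlike Gm9855 and Aire above. Dnmt3c, a rodent copy of Dnmt3b that acts in male germ cells, had 2 and 0 reads in knockdown-labelled libraries and 1 and 0 in control-labelled libraries. The antisense row Dnmt3aos had 0 and 1 reads in knockdown-labelled libraries and 2 and 0 in control-labelled libraries, and Dnmt3bos had 1 and 0 in knockdown-labelled libraries and 4 and 0 in control-labelled libraries. The processed copy Tdg-ps had 0 and 3 reads in knockdown-labelled libraries and 2 and 0 in control-labelled libraries, and Dnmt3l-ps1 had 0 and 1 in knockdown-labelled libraries and 0 and 0 in control-labelled libraries. These rows were chosen after their values were seen.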
